A study of Mus musculus with 9 samples.

Results

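The genes described here encode the nuclear subunits of oxidative phosphorylation, and were followed in cells cut by laser-capture microdissection from mouse brain in a study of visceral and somatic pain in the paraventricular hypothalamus. They were all rows of the count table whose symbol began with Ndufa, Ndufb, Ndufc, Ndufs, Ndufv, Sdha, Sdhb, Sdhc, Sdhd, Uqcr, Cox4i, Cox5, Cox6, Cox7, Cox8 or Atp5. Of 111 such rows, 9 pseudogenes with a -ps symbol and 12 rows of assembly factors were left out, so that 90 of 54838 genes remained. They fell into 39 genes of complex I, 4 of complex II, 8 of complex III, 21 of complex IV, 17 of complex V, and Atp5s, which was set apart as not a subunit. The rows carry 89 symbols, because Atp5o had a second row, which was at 0 in every column. GENCODE M21, on the mm10 build, annotates 4 of the 90 as processed pseudogenes despite their symbols (Ndufs6b, Cox6c2, Ndufb4c and Ndufa11b).

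Libraries were made from polyadenylated RNA by Smart-3SEQ, which reads the 3′ ends of transcripts, and the labels name 3 groups with 3 libraries each, with neuron as the cell type. The names are overlap, mCherry (a red fluorescent protein) and cfos, the product of Fos, an immediate early gene of active neurons. Per the design text the cells carried a label for CRD, for VFF or for CRD and VFF together, and nothing ties these terms to mCherry or cfos. The sources used here give no strain, sex, age, genotype, way of delivering mCherry or number of cells or animals behind a library, so the p-values below measure the spread between these libraries. Fewer cells of a type and less RNA per cell cannot be told apart in such bulk samples.

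Oxidative phosphorylation is the chain by which mitochondria make ATP. Complexes I and II take electrons from NADH and succinate, complex III passes them to cytochrome c, complex IV hands them to oxygen, and complex V, the ATP synthase, uses the proton gradient built on the way. Most subunits are encoded in the nucleus and a small core in mitochondrial DNA, and neurons rely on the pathway to pay for ion pumping and synaptic release.

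Total counts were 504785 to 597898 in the overlap libraries, 877257 to 978877 in mCherry and 700556 to 3414593 in cfos. The columns cfos 2 and cfos 3 differed by less than sampling noise (chi-square per gene 0.824, against 9.08 in the next closest pair of columns), and they were counted as 1 replicate, cfos 2+3, which leaves 8 replicates. In addition, mCherry 2 was above the summed counts of mCherry 1 and mCherry 3 in 0 of 54838 genes, so its independence from them could not be established, and results are given with and without it where it matters. Levels below are CPM, counts scaled to TMM-adjusted library sizes. A gene at 0 could still have had 3 counts, worth 5.43 to 6.32 CPM in an overlap library, 3.07 to 3.54 in mCherry, 4.21 in cfos 1 and 1.28 in cfos 2+3, for counting error only. Markers of neurons (12 of 12 with counts, none at 0 in every column) summed to 861.7 to 1420.4 CPM in overlap, 1627.6 to 1727.6 in mCherry and 2199.8 to 3893.2 in cfos. Glial markers were present in every group as well. The 9 oligodendrocyte markers summed to 402.4 to 1759.8 CPM in overlap, 1277.7 to 2410.5 in mCherry and 4749.7 to 6801.9 in cfos, and the 10 astrocyte markers to 893.3 to 1033.8, 1159.6 to 1310.5 and 1485.2 to 3873.6. In each of these 3 lists the highest replicate was cfos 1, and in both cfos replicates the oligodendrocyte sum exceeded the neuronal sum, although the labels give neuron as the cell type of every sample.

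Promoters of respiratory genes are known for sites of the activators NRF1 and GABP, an ETS factor. RefSeq windows of GRCm38.p6 from 250 bases before to 50 bases after the start were found for 67 member genes. An NRF1 motif, GCGCANGCG, searched on both strands, was present in 19 of them (28.4%), against 6.47% of all 27025 promoters. The ETS motif CCGGAAG, searched likewise, was present in 15 (22.4%, against 9.12%) and a YY1 motif, AANATGGCG, in 8 (11.9%, against 2.51%). Median GC content was 57.3% in the members' windows and 52.7% in all, and matches to GC-rich motifs depend on it. The 170 bases before the start of 3 members, all on the minus strand, show the range from several matches to none: Sdha at chr13:74350241-74350410, Cox6a1 at chr5:115348959-115349128 and Ndufa4 at chr6:11907451-11907620. Sdha encodes the flavoprotein of complex II, and Cox6a1 and Ndufa4 are complex IV members that differ in direction below. In complex IV an NRF1 motif was present in only 1 of 14 windows (7.14%), that of Cox6a1, and an ETS motif in 3. Any relation of the motifs to direction was not tested. Capitals mark NRF1 motifs and, in Cox6a1, an ETS motif on the other strand. No NRF1 motif shares bases with an ETS motif, and matches on both strands of 1 site were counted once.
Sdha: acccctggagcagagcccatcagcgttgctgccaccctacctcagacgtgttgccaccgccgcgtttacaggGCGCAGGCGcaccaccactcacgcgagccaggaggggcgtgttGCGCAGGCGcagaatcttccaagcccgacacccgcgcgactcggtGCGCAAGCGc
Cox6a1: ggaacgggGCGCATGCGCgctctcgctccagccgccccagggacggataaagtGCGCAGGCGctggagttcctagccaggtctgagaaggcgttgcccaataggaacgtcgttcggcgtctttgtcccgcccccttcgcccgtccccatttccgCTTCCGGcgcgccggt
Ndufa4: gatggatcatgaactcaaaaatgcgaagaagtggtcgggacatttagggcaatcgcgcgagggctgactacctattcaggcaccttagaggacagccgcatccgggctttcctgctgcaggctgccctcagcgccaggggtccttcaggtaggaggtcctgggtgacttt
Sdha held 3 NRF1 motifs, Cox6a1 held 2 together with 1 ETS motif, and Ndufa4 held neither, which says only that these letters are not in its window.

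The members were low and unevenly detected. At least 1 count was found for 62 to 68 of the 90 in an overlap library, 73 to 74 in mCherry and 77 to 78 in cfos. A filter on low counts kept 52 members among 16410 genes, and 38 members were under it. Those under it were Ndufa1, Ndufa11b, Ndufa12, Ndufb3, Ndufb4, Ndufb4c, Ndufb6, Ndufb7, Ndufb8, Ndufb11, Ndufc1, Ndufs5, Ndufs6, Ndufs8 and Ndufv2 of complex I, Sdhb and Sdhd of complex II, Uqcrfs1, Uqcrh and Uqcr11 of complex III, Cox5b, Cox6a2, Cox6b1, Cox6b2, Cox6c2, Cox7a1, Cox7a2, Cox8a, Cox8b, Cox8c and Ndufa4l2 of complex IV, Atp5c1, Atp5g2, Atp5h, Atp5j, Atp5mpl and the other Atp5o row of complex V, and Atp5s. Of these, Cox8b, Cox8c, Cox6c2, Ndufa11b and the other Atp5o row were at 0 throughout. The tested members were 24 of complex I, 2 of complex II, 5 of complex III, 10 of complex IV and 11 of complex V. The highest mean levels were those of Atp5a1 (425 CPM), Atp5j2 (193), Ndufa10 (149.9), Ndufs1 (137) and Uqcrc2 (122). CPM are compared between genes here because a 3′ library yields about 1 read position per transcript whatever its length. How evenly the 3′ ends of different genes were captured and assigned was not tested, so these ranks are approximate.

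The median level of the tested members was highest in cfos 1 and, apart from overlap 2, lowest in the overlap libraries. It was 14.48, 18.14 and 10.53 CPM in overlap 1 to 3, 21.87, 21.85 and 17.39 in mCherry 1 to 3, 46.98 in cfos 1 and 22.17 in cfos 2+3. The ranges of overlap and mCherry met, since overlap 2 lay above mCherry 3, and cfos 2+3 lay barely above mCherry. The summed level of all 90 members, which a few abundant genes decide, did not follow that order. It was 2746.5, 2316.5 and 3286.8 CPM in overlap, 2639.8, 2419.6 and 2364.2 in mCherry, 4134.4 in cfos 1 and 2833.9 in cfos 2+3, so that overlap 1 and overlap 3 were above every mCherry library. The same 2 libraries were above mCherry without Atp5a1, at 2348.2 and 2435.6 against 2040.5 to 2156.7 CPM. For overlap 1 this depended on the scaling. With total counts in place of TMM the sum of all 90 was 2537.2 CPM in overlap 1, below the 2571 of mCherry 1. Overlap 3, at 3090.4 CPM, was still the higher. The median over all genes tested was ordered otherwise, at 29.5 to 36.21 CPM in overlap, 23.53 to 33.06 in mCherry, 22.44 in cfos 1 and 27.29 in cfos 2+3. Cfos 1 was the highest replicate for 26 of the 52 members (50%), against 16.8% of all genes tested. It was also the highest in the neuronal, astrocyte and oligodendrocyte marker sums given above. It was not in the 8 microglial markers, which summed to 189.6 to 275.2 CPM in overlap, 118.1 to 185.2 in mCherry, and 109.4 and 103.6 in cfos, nor in the 9 endothelial and mural markers, at 625.8 to 671.2, 492.1 to 549.3, and 579.2 and 645.1. The part of any of these in the members' levels was not tested.

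**Figure D1:**
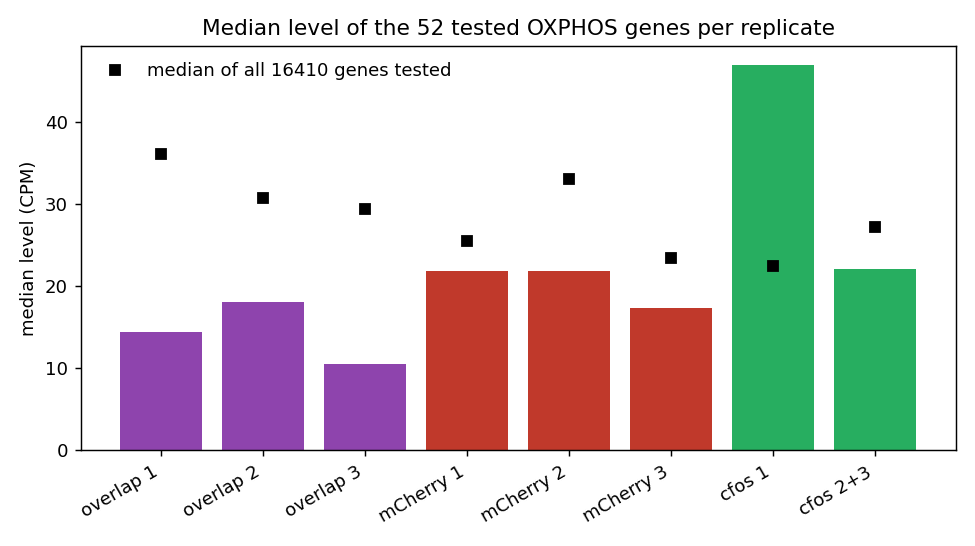
Bars show the median CPM of the 52 tested oxidative phosphorylation genes in each of the 8 replicates, and black squares the median of all 16410 genes tested. The members reach 46.98 CPM in cfos 1 and stay between 10.53 and 22.17 elsewhere, while the squares are lowest in cfos 1.

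**Figure D2:**
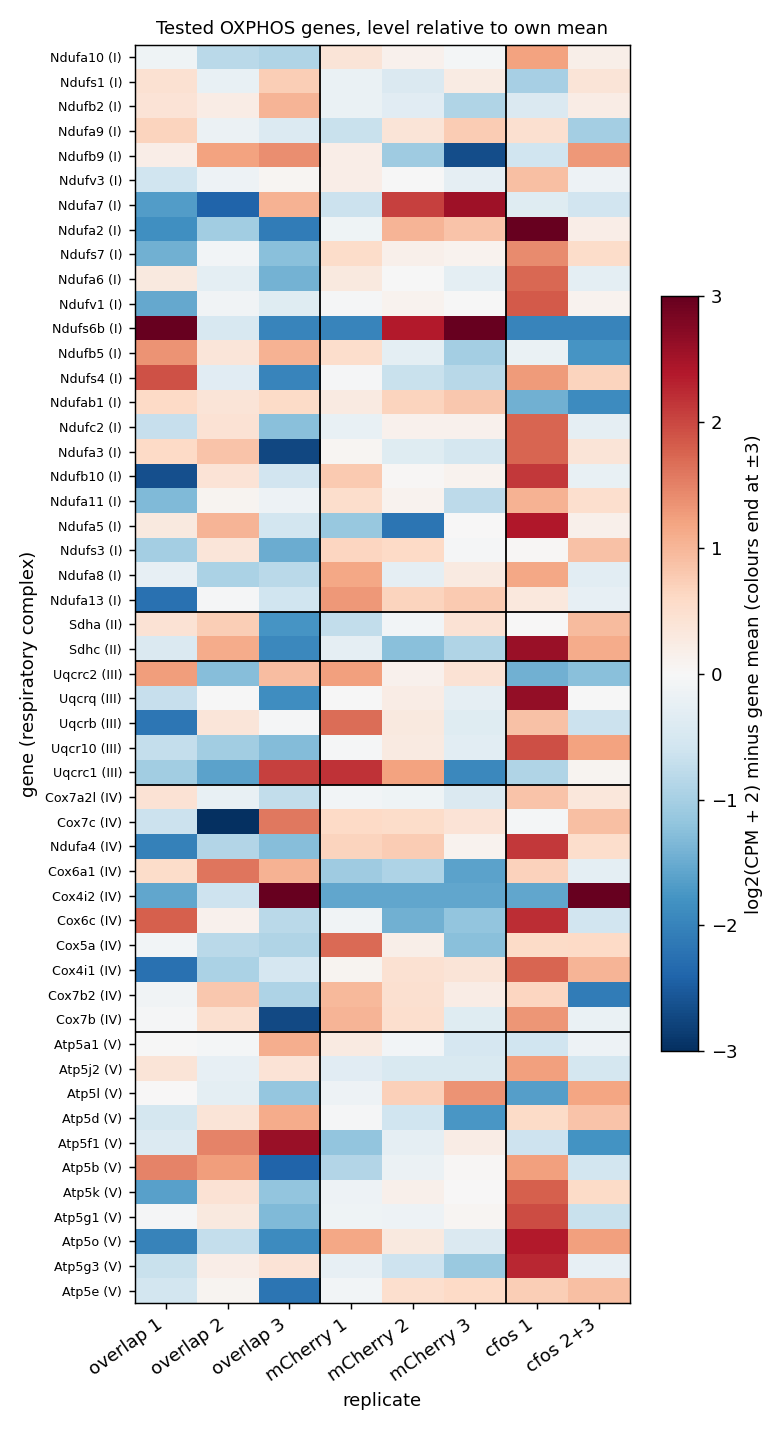
Each row is a tested member (51 are drawn), ordered by complex (horizontal lines) and mean level, and each column a replicate; colour is log2(CPM + 2) minus the gene's mean over the 8 replicates. Red cells gather in the cfos 1 column, and single cells stand out for Cox4i2 and Ndufs6b, which were absent from several replicates.

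Complex I, the NADH dehydrogenase, had summed levels of 863.5 to 1104.4 CPM in overlap, 927.9 to 1048.6 in mCherry, 1664.7 in cfos 1 and 995.2 in cfos 2+3. Only cfos 1 stood apart. Its most abundant member, Ndufa10 (ENSMUSG00000026260), an accessory subunit, had 124.9, 76.2 and 71.6 CPM in overlap 1 to 3, 179, 148 and 129.9 in mCherry 1 to 3, 316 in cfos 1 and 154 in cfos 2+3. Every overlap value was below every value of the other groups. Ndufs1, the largest core subunit with iron-sulfur clusters, was instead at 111 to 217 CPM in overlap, 94.5 to 154 in mCherry and 63.1 and 169.7 in cfos, with ranges that met. Ndufb2, an accessory subunit, was at 123.4 to 215 CPM in overlap, above the 55.2 to 90.7 of mCherry and the 77.1 and 122.8 of cfos, although barely so in cfos 2+3.

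Ndufa2 (ENSMUSG00000014294, chromosome 18, 36742332 to 36744557, minus strand), an accessory subunit with a thioredoxin-like fold, had the lowest fold change of overlap against either other group among the tested complex I genes. Its levels were 5.43, 10.9 and 4.21 CPM in overlap 1 to 3, 22.4, 51.96 and 46.0 in mCherry 1 to 3, 210.4 in cfos 1 and 28.1 in cfos 2+3. The overlap values lay below all others but stood for only 3, 6 and 2 counts, and cfos 1 lay far above all others. The exons of Ndufa2 share bases with Tmco6 on the opposite strand, and the strand setting of the counting is not given in the sources used, so that reads of the pair cannot be told apart. Ndufab1, the mitochondrial acyl carrier protein that is also a complex I subunit, showed another pattern, with 23.5, 19.9 and 23.2 CPM in overlap, 18.1, 24.8 and 27.6 in mCherry, and 4.21 and 2.56 in cfos 1 and cfos 2+3. Its 2 cfos values were below every other value. At least 20% of the 50-base words in its last 300 transcript bases also occur in other genes, so its counts may depend on how shared reads were assigned. Ndufa5, an accessory subunit of the peripheral arm, was at 46.3 CPM in cfos 1 and 8.10 in cfos 2+3, against 2.13, 0 and 7.16 in mCherry and 4.21 to 16.3 in overlap.

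Other complex I members appeared in a few replicates only. Ndufs6b, annotated as a processed pseudogene, had 61.6, 3.63 and 0 CPM in overlap, 0, 39.0 and 62.4 in mCherry, and 0 in both cfos replicates. Ndufa1, an essential small subunit, was seen in overlap 1 alone, at 30.8 CPM, and Ndufb11 in cfos 1 alone, at 14.0 CPM. Ndufb4 had no counts in any overlap or mCherry library, but 2.81 CPM in cfos 1 and 4.26 in cfos 2+3, while the row Ndufb4c, annotated as a processed pseudogene, had 5.43 CPM in overlap 1, 1.02 in mCherry 3 and 7.01 in cfos 1. Both cfos levels of Ndufb4 are under what 3 counts are worth in an overlap library. Over whole groups cfos was at least 2.06-fold above overlap and 3.61-fold above mCherry, against 3 counts in each.

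Complex II, succinate dehydrogenase, was low throughout. Its 4 genes summed to 39.8, 67.1 and 8.4 CPM in overlap, 23.5, 29.5 and 44.0 in mCherry, and 109.4 and 76.8 in cfos 1 and cfos 2+3, so that both cfos sums exceeded all others. Without Sdha, which carries most of the signal, cfos 2+3 (24.7 CPM) was close to overlap 2 (21.8) and cfos 1 stood at 82.7. Sdha was at 36.2, 45.3 and 6.32 CPM in overlap, 14.9, 24.8 and 35.8 in mCherry, and 26.6 and 52.02 in cfos, with ranges that met. Sdhc, a membrane anchor, was at 3.62, 14.5 and 0 CPM in overlap, 4.27, 1.18 and 2.05 in mCherry, and 43.5 and 14.5 in cfos. Its cfos values were above all mCherry values. Sdhb, the iron-sulfur subunit, and Sdhd, the other anchor, were under the filter. Sdhb was at 0, 3.63 and 0 CPM in overlap, 3.20, 3.54 and 5.12 in mCherry, and 33.7 and 9.38 in cfos, and Sdhd stayed at or under 5.61 CPM everywhere.

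In complex III, cytochrome bc1, the highest mean level was that of Uqcrc2 (ENSMUSG00000030884, chromosome 7, 120635176 to 120659524, plus strand), a core subunit. Uqcrc2 had 228, 38.1 and 183 CPM in overlap 1 to 3, 224, 104 and 129.9 in mCherry 1 to 3, and 33.7 and 38.4 in cfos 1 and cfos 2+3. Both cfos values were below all mCherry values, and overlap 2 was as low as cfos 2+3. Without Uqcrc2 the other 7 genes of the complex summed to 29.0, 43.5 and 73.7 CPM in overlap, 135.5, 87.4 and 45.0 in mCherry, and 346.4 and 82.3 in cfos, so Uqcrc2 and the rest of the complex were ordered differently over the groups. In cfos 1 Uqcrc2 was below Uqcr11, a small subunit under the filter, which had 115.0 CPM there, 6.82 in cfos 2+3 and at most 9.05 elsewhere. Uqcr10, a small subunit named here after its values were seen, had 7.24, 5.44 and 4.21 CPM in overlap, 12.8, 16.5 and 10.2 in mCherry, and 56.1 and 33.3 in cfos. The 3 groups followed each other without meeting, and the overlap values were at the level of 2 to 4 counts. Uqcrq and Uqcrb, also small subunits, had 2.11 to 12.7 and 1.81 to 19.9 CPM in overlap, 10.2 to 15.4 and 11.3 to 52.3 in mCherry, and 89.8 and 12.8, and 29.5 and 8.95, in cfos 1 and cfos 2+3.

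Complex IV, cytochrome c oxidase, summed to 293.9 to 391.9 CPM in overlap, 246.5 to 389.3 in mCherry, 659.2 in cfos 1 and 651.1 in cfos 2+3. Here both cfos replicates stood apart, for different genes, because Cox5b and Cox4i2 made up a large part of cfos 2+3 only. Ndufa4 (ENSMUSG00000029632, chromosome 6, 11900292 to 11907497, minus strand), long counted with complex I and now placed in complex IV, had 5.43, 14.5 and 10.5 CPM in overlap 1 to 3, 45.9, 49.6 and 30.7 in mCherry 1 to 3, 129 in cfos 1 and 41.8 in cfos 2+3. All overlap values lay below all others, and they stood for 3, 8 and 5 counts. Its relative Ndufa4l2, known as a hypoxia-induced gene, was under the filter, with at most 2.11 CPM in overlap, 7.47, 1.18 and 0 in mCherry and 0 in cfos.

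Several complex IV subunits exist as tissue isoforms. Cox4i1, the ubiquitous form of subunit 4, had 1.81, 7.26 and 10.5 CPM in overlap, 17.1, 22.4 and 21.5 in mCherry, and 57.5 and 34.1 in cfos, again in the order overlap, mCherry, cfos without meeting. Only 1, 4 and 5 counts lay behind the overlap values of Cox4i1. Cox4i2, its hypoxia-responsive form found in lung and pericytes, had 0, 1.81 and 92.7 CPM in overlap, 0 in all mCherry libraries, and 0 and 118.5 in cfos 1 and cfos 2+3. Overlap 3 and cfos 2+3 therefore carried nearly all of its counts. Cox5b, which was under the filter, was similar in cfos, with 4.21 and 166.7 CPM, against 0 to 9.05 in the other libraries.

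Cox6a1 (ENSMUSG00000041697, chromosome 5, 115345642 to 115348981, minus strand), the form of subunit 6a found outside muscle, went the other way from Cox4i1 and Ndufa4. It had 43.5, 92.5 and 61.1 CPM in overlap, 12.8, 14.2 and 8.18 in mCherry, and 47.7 and 23.0 in cfos. Overlap and cfos both lay above all mCherry values. Its muscle form, Cox6a2, was at 0 in overlap and at 1.71 to 4.72 CPM elsewhere. Those levels are under the 5.43 to 6.32 CPM that 3 counts are worth in an overlap library. Over whole groups, against 3 counts in overlap, mCherry was at least 1.71-fold and cfos at least 1.03-fold higher. Cox7a2l, which helps join complexes III and IV into supercomplexes, was the most abundant complex IV member, with 59.0 to 135.8 CPM in overlap, 73.7 to 94.9 in mCherry, and 182 and 129 in cfos. Its relative Cox7a1, the heart and muscle form, was seen only in mCherry, at 10.7, 8.27 and 5.12 CPM, against 0 in all other libraries, and Cox7a2, the form of other tissues, was at 2.11 to 3.63 CPM in overlap, 4.27 to 8.18 in mCherry and 22.4 and 13.2 in cfos. Cox7c ranged from 1.81 CPM in overlap 2 to 118 in overlap 3. Cox6b1 was highest in overlap 1, at 21.7 CPM, the testis form Cox6b2 was seen in cfos 2+3 alone, at 0.853 CPM, and Cox8a was at 0 to 9.82 CPM.

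**Figure D3:**
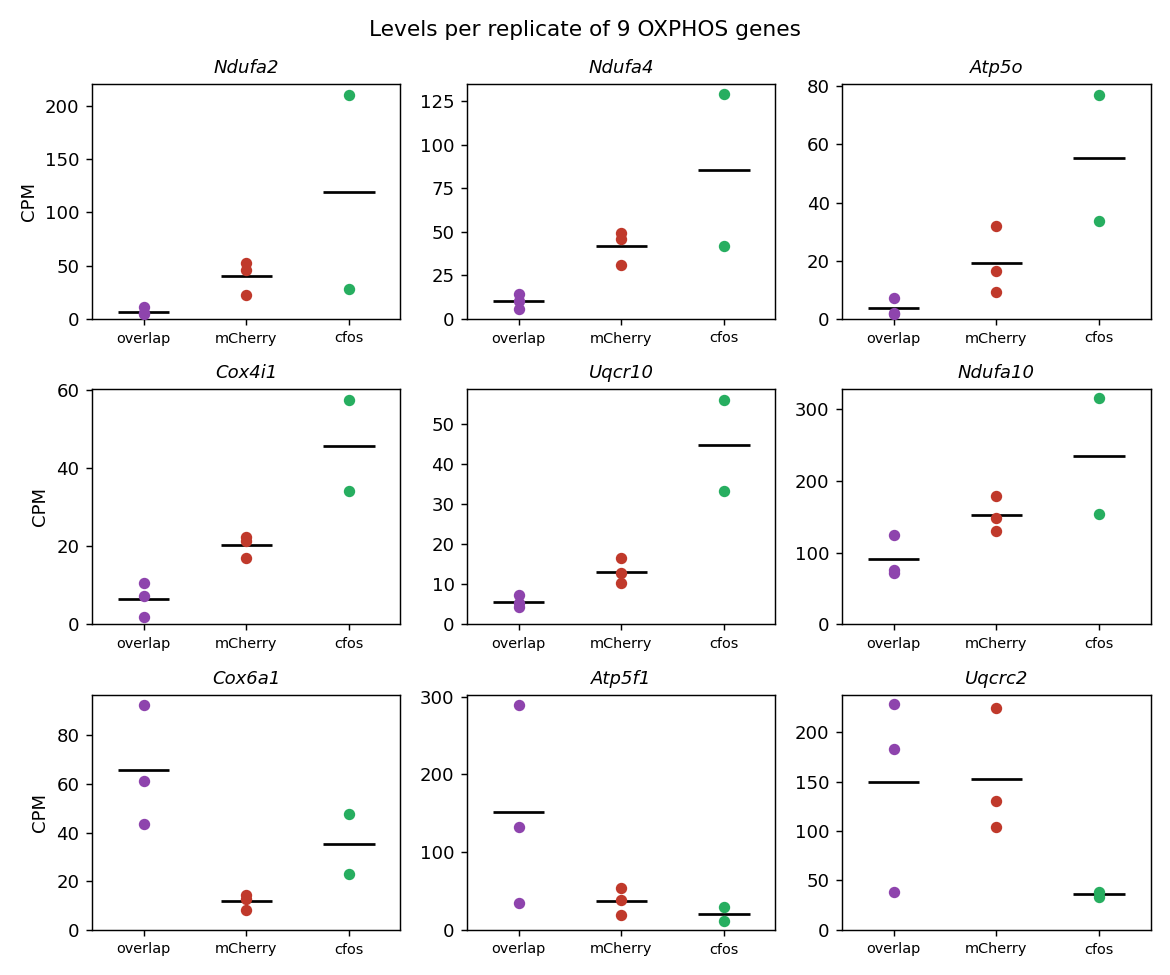
CPM per replicate (points) and the group mean (line) for 9 members in the overlap, mCherry and cfos groups, each panel with its own axis from 0. Overlap lies under both other groups for Ndufa2, Ndufa4, Atp5o, Cox4i1, Uqcr10 and Ndufa10, while Cox6a1 and Atp5f1 are high in overlap and Uqcrc2 is low in cfos.

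Complex V, the ATP synthase, summed to 999.4, 1010.4 and 1609.7 CPM in overlap, 849.1 to 939.7 in mCherry, and 1315.5 and 988.4 in cfos. All overlap sums were above all mCherry sums. Atp5a1, the alpha subunit of the catalytic F1 head, had 398, 385 and 851 CPM in overlap, 483, 379 and 280.3 in mCherry, and 264 and 358 in cfos, and its overlap values were above both cfos values. Without Atp5a1 the sums were 601.1 to 758.5 CPM in overlap and 456.5 to 568.8 in mCherry, so they were still separate. Atp5f1 (ENSMUSG00000000563, chromosome 3, 105942698 to 105960099, minus strand), the b subunit of the stalk that holds the head in place, had 34.4, 132 and 289 CPM in overlap, 19.2, 37.8 and 54.2 in mCherry, and 29.5 and 11.9 in cfos. Overlap 2 and overlap 3 were above every other library, and overlap 1 lay inside the range of mCherry.

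Atp5o (ENSMUSG00000022956, chromosome 16, 91925214 to 91931687, minus strand), a further stalk subunit that joins the head to the membrane part, showed the opposite. It had 1.81, 7.26 and 2.11 CPM in overlap, 32.0, 16.5 and 9.21 in mCherry, and 77.1 and 33.7 in cfos, in 3 ranges that did not meet. Its overlap values stand for 1 to 4 counts each, and at least 20% of the words in its last 300 bases occur in other genes. Atp5j, a stalk coupling factor under the filter, was seen in overlap 2 alone among the overlap libraries, at 1.81 CPM, and at 5.12 to 18.1 CPM in mCherry. Atp5j2 and Atp5l, small membrane subunits, were at 149 to 234 and 40.03 to 92.3 CPM in overlap, 128 to 139 and 83.2 to 237 in mCherry, and 412 and 122, and 28.1 and 211, in cfos 1 and cfos 2+3. The 3 genes of the c subunit, which forms the rotating ring and yields 1 mature protein, were unequal. Atp5g1 was at 6.32 to 23.6 CPM outside cfos 1 and at 78.5 there, Atp5g3 at 6.14 to 21.1 and 81.3, and Atp5g2 at 52.5 in overlap 1, 1.71 in cfos 2+3 and 0 elsewhere. Of the words in the last 300 bases, 36.0% in Atp5g1, 52.6% in Atp5g2 and 70.1% in Atp5l occur in other genes. The counts of these 3 genes may therefore depend on how shared reads were assigned.

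Overlap was then compared with mCherry by edgeR's quasi-likelihood test over all 16410 genes. Of the 52 tested members 33 had a log2 fold change below 0 (63.5%, against 47.7% of all genes tested) and the median was -0.38, against 0.09 over all genes. The excess was absent with a filter on a minimum count of 30, where 13 of 26 members were below 0 (50%, against 53.2% of all genes). None of the 52 passed an adjusted p of 0.05, and neither did any other gene (0% called), with a biological coefficient of variation of 0.958. At an unadjusted p under 0.05 there were 3 members higher, where the share of all genes was 10.1%, and 1 lower, against 4.9%, and DESeq2 called 1 member higher, Cox6a1 (log2 fold change 2.40, adjusted p = 0.027), where it called 4.37% of all genes higher and 1.76% lower. That call was lost without mCherry 2 (adjusted p = 0.247 by DESeq2). The value ranges were separate for 10 members lower in overlap (19.2%, against 8.88% of all genes) and for 4 higher (7.69%, against 13.5%). Those lower in overlap included Ndufa10, Ndufs7, Ndufa13, Ndufa2, Ndufv1, Uqcr10, Ndufa4, Cox4i1 and Atp5o, and the 4 higher were Cox6a1, Atp5j2, Ndufb2 and Ndufb9.

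By complex the median log2 fold change was -0.43 in I, 0.73 in II with 2 members, -0.78 in III, where 5 of 5 were below 0, -0.38 in IV and 0.52 in V. Neuronal markers had 11 of 12 below 0 here (median -0.52), oligodendrocyte markers 6 of 6 (-1.21), astrocyte markers 7 of 8 (-0.20), endothelial and mural markers 2 of 7 (1.44) and microglial markers 2 of 5 (0.52), and their part in the members' values was not tested. Complex V turned below 0 without overlap 1 (-0.16) or overlap 2 (-0.51), and complex IV turned above 0 with a stricter filter (0.80). The members of smallest p on the lower side were Ndufa2 (log2 fold change -2.52, SE 1.04, adjusted p = 0.303 by edgeR), Ndufa4 (-2.04, SE 0.93, 0.339) and Atp5o (-2.32, SE 1.17, 0.382). On the higher side they were Cox6a1 (2.47, SE 0.92, adjusted p = 0.289 by edgeR), Cox4i2 and Atp5f1 (2.03, SE 0.91, 0.334). For Cox4i2, with 45 counts in overlap and 0 in mCherry, overlap was at least 26.3-fold higher against 3 counts over the mCherry group, and this rested on overlap 3. Its adjusted p was 0.318 by edgeR. Without mCherry 2 the number of members at an unadjusted p under 0.05 was 0 in place of 4. That fall was not particular to mCherry 2, since the number was also 0 without mCherry 3, and 4 without mCherry 1.

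Against cfos the members of overlap lay further down. Of 52, 37 had a log2 fold change below 0 (71.2%, against 45.4% of all genes tested, with 53.2% above 0), with a median of -0.97 against 0.12 over all genes, and the complex medians were -1.16 in I, -1.32 in II, -0.64 in III, -0.83 in IV and -0.80 in V. No member and no other gene passed the adjusted test by edgeR (0% called). At an unadjusted p under 0.05, 6 members were lower (11.5%, against 3.14% of all genes) and 3 higher (against 8.69%). Without mCherry 2, 5 members in place of 9 were at such a p. That library is in neither group here and acts only through the shared model, scaling and filter, which then kept 50 members. Without overlap 1, overlap 2 or overlap 3 the number was 6, 8 and 7. Value ranges were separate for 14 members lower in overlap (26.9%, against 12%) and 5 higher (9.62%, against 13.6%). The 6 lower members were Ndufa2, Ndufa4, Atp5o, Uqcr10, Ndufa10 and Cox4i1.

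For Ndufa2 the log2 fold change was -4.09 (SE 1.14, adjusted p = 0.354 by edgeR), for Ndufa4 -3.05 (SE 1.02, 0.368) and for Atp5o -3.84 (SE 1.28, 0.368). DESeq2 called these 3 members, with adjusted p = 0.0122, 0.0259 and 0.0405, where 0.949% of all genes were called lower and 5.29% higher by that tool. Without mCherry 2 it called Ndufa2 only (0.045). On the higher side were Atp5f1 (2.89, SE 1.10, adjusted p = 0.398 by edgeR), Uqcrc2 (2.05, SE 0.83, 0.402) and Ndufs6b, for which overlap was at least 23.3-fold higher against 3 counts over the cfos group (adjusted p = 0.422 by edgeR), with most of its 36 counts in overlap 1.

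The size of this difference depended on cfos 1. Without that replicate the complex medians were -0.07 in I, 0.40 in III, -0.64 in IV and 0.35 in V. The complex III median also turned above 0 without mCherry 2 (0.32) and with the stricter filter (1.57), as did that of complex I with that filter (0.10), and it was -3.26 without cfos 2+3. Without cfos 1, 37 of 64 members tested were below 0 and the median was -0.09, and the log2 fold changes of Ndufa2 and Ndufa4 were -2.05 and -2.06, with -3.16 for Atp5o. With the 52 members held fixed, the overlap mean was below cfos 1 in 36 and below cfos 2+3 in 32. With a filter on a minimum count of 30 the median was -0.28, against 0.12 over all genes, with 14 of 26 members below 0 (53.8%, against 46.5% of all genes). Among marker lists, 12 of 12 neuronal and 6 of 6 oligodendrocyte markers tested had log2 fold changes below 0 in this comparison, with medians of -1.71 and -2.08. Astrocyte markers had 4 of 8 below 0 (median -0.15), endothelial and mural markers 4 of 7 (-0.11) and microglial markers 1 of 5 (1.26). The part of these in the members' values was not tested.

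**Figure D4:**
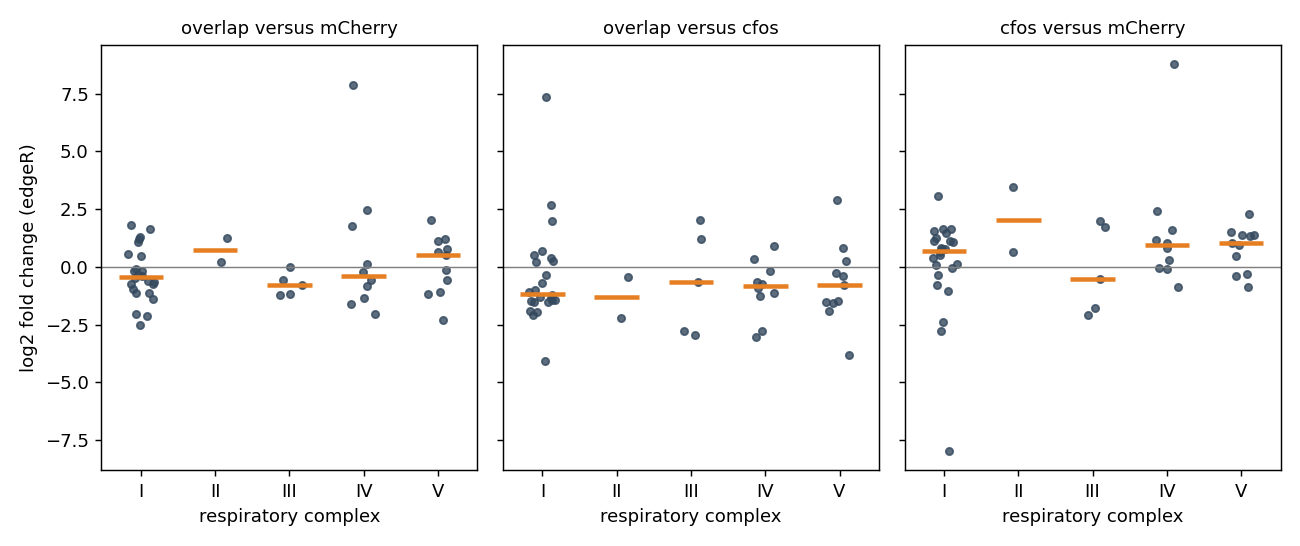
Each point is a tested member's log2 fold change by edgeR in the 3 comparisons, split by respiratory complex, and orange lines are medians. Points lie mostly below 0 for overlap versus cfos, with medians from -1.32 to -0.64, and the outlying points above 7 or below -7 are Cox4i2 and Ndufs6b, which had no counts in a group.

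In cfos against mCherry, which shares its groups with both comparisons above, 36 of 52 members had a log2 fold change above 0 (50.9% of all genes) and the median was 0.81 (0.04 over all genes). Complex medians were 0.70 in I, 2.05 in II, -0.53 in III, 0.93 in IV and 1.01 in V. No member or other gene passed by edgeR (0% called), with 1 member higher and 3 lower at an unadjusted p under 0.05, where the shares of all genes were 7.49% and 10.2%. Without mCherry 2, 1 member in place of 4 was at such a p, and the number was likewise 1 without mCherry 3 and 2 without mCherry 1. Ranges were separate for 14 members higher in cfos (26.9%, against 18.5% of all genes) and 3 lower (5.77%, against 14.2%). The 3 lower members were Uqcrc2, Ndufab1 and Ndufa13.

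For Uqcrc2 the fold change was -2.08 on the log2 scale, with an SE of 0.83 (adjusted p = 0.263 by edgeR, 0.0491 by DESeq2), and for Ndufab1 it was -2.78, with an SE of 1.23 (adjusted p = 0.281 by edgeR, 0.027 by DESeq2). DESeq2 called 7.31% of all genes lower and 2.83% higher here, and without mCherry 2 both members missed its threshold (adjusted p = 0.0971 for Uqcrc2 and 0.221 for Ndufab1). Neuronal markers had 12 of 12 above 0 (median 0.85), oligodendrocyte markers 5 of 6 (1.15), astrocyte markers 5 of 8 (0.34), endothelial and mural markers 4 of 7 (1.05) and microglial markers 1 of 5 (-0.97), and their part in the members' values was not tested. Ndufs6b, with 94 counts in mCherry and 0 in cfos, was at least 34.7-fold lower in cfos (adjusted p = 0.27 by edgeR). On the higher side, Cox4i2 was at least 83.7-fold higher in cfos against 3 counts over mCherry, all of it in cfos 2+3 (adjusted p = 0.263 by edgeR), and Sdhc and Ndufa5 stood at 3.45 (SE 1.60, adjusted p = 0.296 by edgeR) and 3.05 (SE 1.59, 0.345) on the log2 scale. Without cfos 1 the median of the members was 0.07 and 29 of 64 were below 0. The mCherry mean was below cfos 1 in 37 of the 52 members and below cfos 2+3 in 26. The complex III median turned above 0 without mCherry 1 (0.35) or without cfos 2+3 (1.90).

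Within complex V, the 4 tested F1 subunits had median log2 fold changes of 0.83 against mCherry and 0.00 against cfos in overlap, and the other 7 tested members of -0.14 and -1.47. A property the choice of members did not use was gene length on the genome. Over the 52 members Spearman's rho of log2 fold change with length was 0.26 for overlap versus mCherry and 0.41 for overlap versus cfos, against -0.01 and -0.13 over 16406 genes. This describes these libraries only, since the genes share them. Members shorter than the median of 8275.5 bp had medians of -0.63 and -1.49, and longer ones 0.04 and -0.40.

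**Figure D5:**
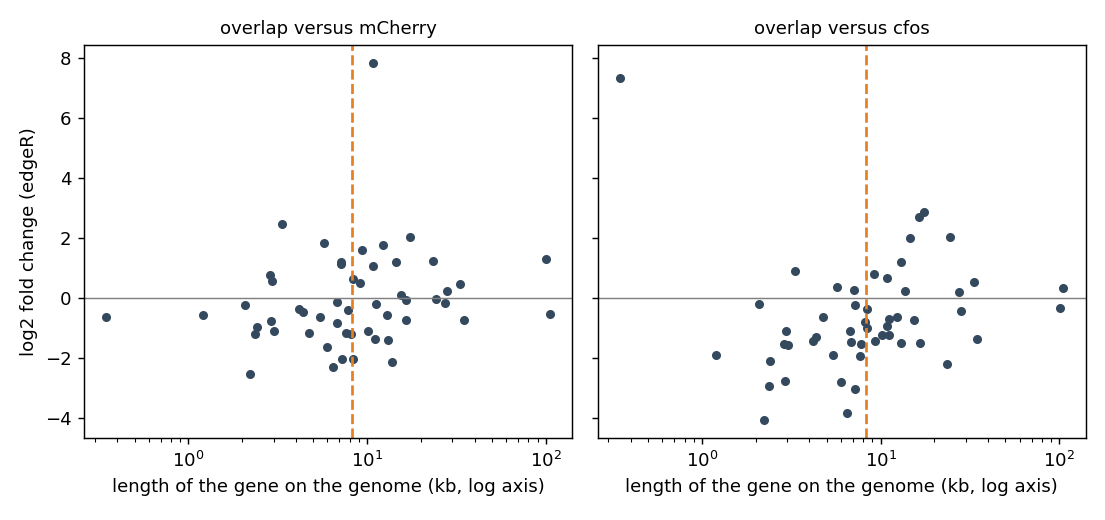
Log2 fold change by edgeR of each tested member (points) against its length on the genome in kilobases on a log axis, for overlap versus mCherry and overlap versus cfos, with the members' median length dashed. Members left of the dashed line have medians of -0.63 and -1.49, those right of it 0.04 and -0.40, and the lone point at the upper left is Ndufs6b.

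Other genes around the pathway gave a mixed picture, with 0 genes of any list past the adjusted test by edgeR in any comparison. All 13 mitochondrially encoded subunits were at 0 in every column, so nuclear and mitochondrial subunits could not be compared. For cytochrome c1 (Cyc1, of complex III) the log2 fold change was -1.31 in overlap against mCherry and -2.51 against cfos, and for cytochrome c (Cycs) 0.19 and -1.56. Enzymes of the citric acid cycle and pyruvate dehydrogenase had 11 of 14 tested genes below 0 in both overlap comparisons, with medians of -0.56 and -1.05, and Ogdh, part of the oxoglutarate dehydrogenase, stood at -1.41 against cfos (SE 0.55, adjusted p = 0.402 by edgeR). Import and matrix chaperones had 6 of 7 below 0 in both, with medians of -0.73 and -1.05, and Tomm40, the pore of the outer membrane translocase, stood at -1.13 against mCherry (SE 0.45, adjusted p = 0.294).

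Assembly factors, which help build the complexes but are not part of them, had 13 of 29 and 11 of 29 tested genes below 0, with medians of 0.10 and 0.70. Acad9, a complex I assembly factor, stood at 4.01 against mCherry (SE 1.05, adjusted p = 0.257 by edgeR), with 59.9 to 82.2 CPM in overlap and 2.13 to 7.09 in mCherry. Sdhaf2, an assembly factor of complex II, was instead low in overlap, with 0, 1.81 and 0 CPM, against 2.13 to 6.14 in mCherry and 12.6 and 91.3 in cfos (adjusted p = 0.354 against cfos by edgeR), and its overlap values stand for 1 count in all. Biogenesis regulators had 5 of 11 and 3 of 11 below 0, with medians of 0.56 and 0.92, and carriers and pores 4 of 9 and 6 of 9, with 0.51 and -0.58. In cfos versus mCherry the medians were 0.46 for the citric acid cycle, 0.54 for import, -0.33 for assembly factors, -0.48 for regulators and 0.26 for carriers.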

How the data were processed

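The values are the authors' raw read counts per gene, deposited in 9 columns. The submitters' processing notes name featureCounts, UMI-tools, STAR and Trim Galore and the mm10 build. How molecular identifiers were used, the strand setting and tool versions are not given in the sources used. Any PCR copies among the counts are not independent molecules, and floors and intervals leave them out of account. Tests used R 4.3.3 and edgeR 4.0.16: filterByExpr by group, TMM, 1 robust quasi-likelihood model over the 3 groups, and two-sided contrasts with Benjamini-Hochberg adjustment at 0.05 over 16410 genes, checked on simulated data. DESeq2 1.42.0, limma-voom (limma 3.58.1), other filters, scalings and replicate choices were alternatives. SE is the fold change over the square root of its F value. Coordinates, exons and transcript ends came from GENCODE M21 (54809 of 54838 identifiers matched), and promoters from RefSeq. Members on either strand can share reads: 27 of them have exons that meet exons of another gene on the opposite strand, Ndufa2, Ndufa4l2, Cox4i1, Uqcrc2, Atp5a1 and Atp5f1 among them.

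The members and gene lists were chosen with earlier results of these data known. Named are the 3 members of smallest p in each direction per comparison, the 3 most abundant of complexes I, III, IV and V, all of complex II, isoform sets and members under the filter. The heat map leaves out 1 tested member that is not reported here, while counts and medians include it.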

Additional observations from a re-analysis of the deposited data

How the results depend on the processing

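Of 295 fold changes of named members under an alternative, 281 kept their direction and their side of the threshold, 0 changed direction and 14 passed the threshold where the main edgeR test had not. These were the members of smallest p in these same data, which favours a kept direction. A member under an alternative's filter, such as Atp5o with a minimum count of 30, gave no fold and was not counted. Summed levels stayed within the spread of their group in 58 of 96 cases, and complex medians within their spread in 174 of 204. The number of members called was 1, 3 and 2 with DESeq2 in overlap versus mCherry, overlap versus cfos and cfos versus mCherry, among 905, 900 and 1529 genes. It was 1, 0 and 5 with limma-voom and sample weights, among 1332, 0 and 2163 genes, and 1, 0 and 3 with no filter, among 484, 214 and 1197. DESeq2 without mCherry 2, an alternative chosen after seeing the data, called 141, 410 and 551 genes and 1 member, Ndufa2 in overlap versus cfos. With all 9 columns as separate samples 0, 15 and 247 genes were called, and with a minimum count of 30 there were 2 in cfos versus mCherry. The median log2 fold change of the members moved with a minimum count of 30 to 0.036 in overlap versus mCherry and -0.28 in overlap versus cfos, and with limma-voom to 0.17 in cfos versus mCherry. Leaving out each replicate gave medians of -0.58 to -0.18, -1.25 to -0.095 and 0.065 to 1.00, with 0 genes and 0 members called by edgeR each time; without cfos 1 they were -0.095 in overlap versus cfos and 0.065 in cfos versus mCherry. Scaling by DESeq2 size factors moved the median of all genes from 0.09 to -0.03 in overlap versus mCherry and from 0.04 to -0.08 in cfos versus mCherry, and the members' medians were then -0.50 and 0.65. The cause of these changes was not tested. Cox4i2 gave no fold in cfos versus mCherry without cfos 2+3, when both groups were at 0. Correlations of the deviations were -0.05 to 0.06 between replicates with the same number and -0.058 to 0.059 between those with different numbers. Whether the numbers pair the samples was not tested. With a replicate block over all 9 columns 0 genes and 0 members were called, and the medians were -0.52, -0.80 and 0.48. The overlap libraries, at 504785 to 597898 counts, set the floor below which a member could not be seen.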
